A study of Mus musculus with 6 samples.

Results

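Cadherins and protocadherins are the calcium-dependent adhesion receptors of the cell surface, and 93 of the 25239 genes listed in these hippocampal libraries carried a Cdh symbol followed by a number or a Pcdh symbol. They were taken by symbol alone and comprised 23 cadherins, 12 non-clustered protocadherins and 58 clustered protocadherins. The libraries were made from the hippocampus of male C57BL/6 mice that were 6 to 8 weeks old. The 3 wild-type mice (WT, Ube3a m+/p+) carried both copies of Ube3a, which encodes a ubiquitin ligase. The 3 Ube3a m-/p+ mice, a model of Angelman syndrome, lacked a working maternal copy and kept the paternal copy, which is silenced in most neurons but not in other cells. The labels name no treatment, and each library came from 1 mouse. The WT libraries held 7293272 to 8675252 gene counts and the Ube3a m-/p+ libraries 8871052 to 11314409, and levels are given as CPM, that is the counts of a gene scaled to 1000000 gene counts in every library.

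Classical cadherins join neighbouring cells by binding the same or a related cadherin on the opposite membrane, and their tails hold catenins that reach the actin cytoskeleton. Type I cadherins such as N-cadherin give strong adhesion, whereas type II cadherins are expressed in more restricted sets of neurons and help to match pre- and postsynaptic partners. Protocadherins have a different tail. The non-clustered ones sort axons and cell groups, while the clustered alpha, beta and gamma genes are switched on in different combinations in single neurons and let the branches of one neuron recognise and avoid each other. In each of the alpha and gamma clusters, a first exon unique to each isoform is spliced to constant exons that all isoforms of that cluster share.

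Ube3a was read first as a check of the labels. Its level was 104, 141 and 151 CPM in the WT mice and 96.8, 82.9 and 80.6 CPM in the Ube3a m-/p+ mice. All 3 mutant mice were below all 3 WT mice, with a log2 fold change of -0.58 (SE 0.12, edgeR adjusted p = 0.036). The GC content of transcripts also separated the libraries. Within a library, the correlation of a gene's deviation from its mean with its GC content had a Spearman rho near 0 in the mice numbered 1 (0.05 in WT and 0.06 in Ube3a m-/p+), of -0.51 and -0.57 in the other WT mice and of 0.53 in both other mutant mice. Log2 fold changes of genes with an annotated transcript were therefore also estimated after an adjustment within each library, called the correction below. It removes the trend with GC content and length, and took the Ube3a difference itself to -0.20 (edgeR adjusted p = 0.24). CPM levels, their sums over genes and shares of counts were not corrected.

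Of the 93 members, 83 had enough counts to be tested. Only Cdh6 was called, at an edgeR adjusted p below 0.05 with a fold change above 1.2, and the same rule called 2.01% of the 14445 genes tested. At an unadjusted edgeR p below 0.05, 8 members were lower in Ube3a m-/p+ mice against 12.4% of all tested genes, which for the members was 9.64%. A further 4 members, 4.82%, were higher at that p, against 12.2% of all genes. The CPM ranges of the genotypes did not overlap, with the mutant mice lower, for 11 members (13.3%) against 14.2% of all genes, and with the mutant mice higher for 7 members (8.43%) against 10.8% of all genes. In each of these counts the share of the members was below that of all tested genes. The plot of log2 fold changes by subfamily shows where the larger differences lay.

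**Figure D1:**
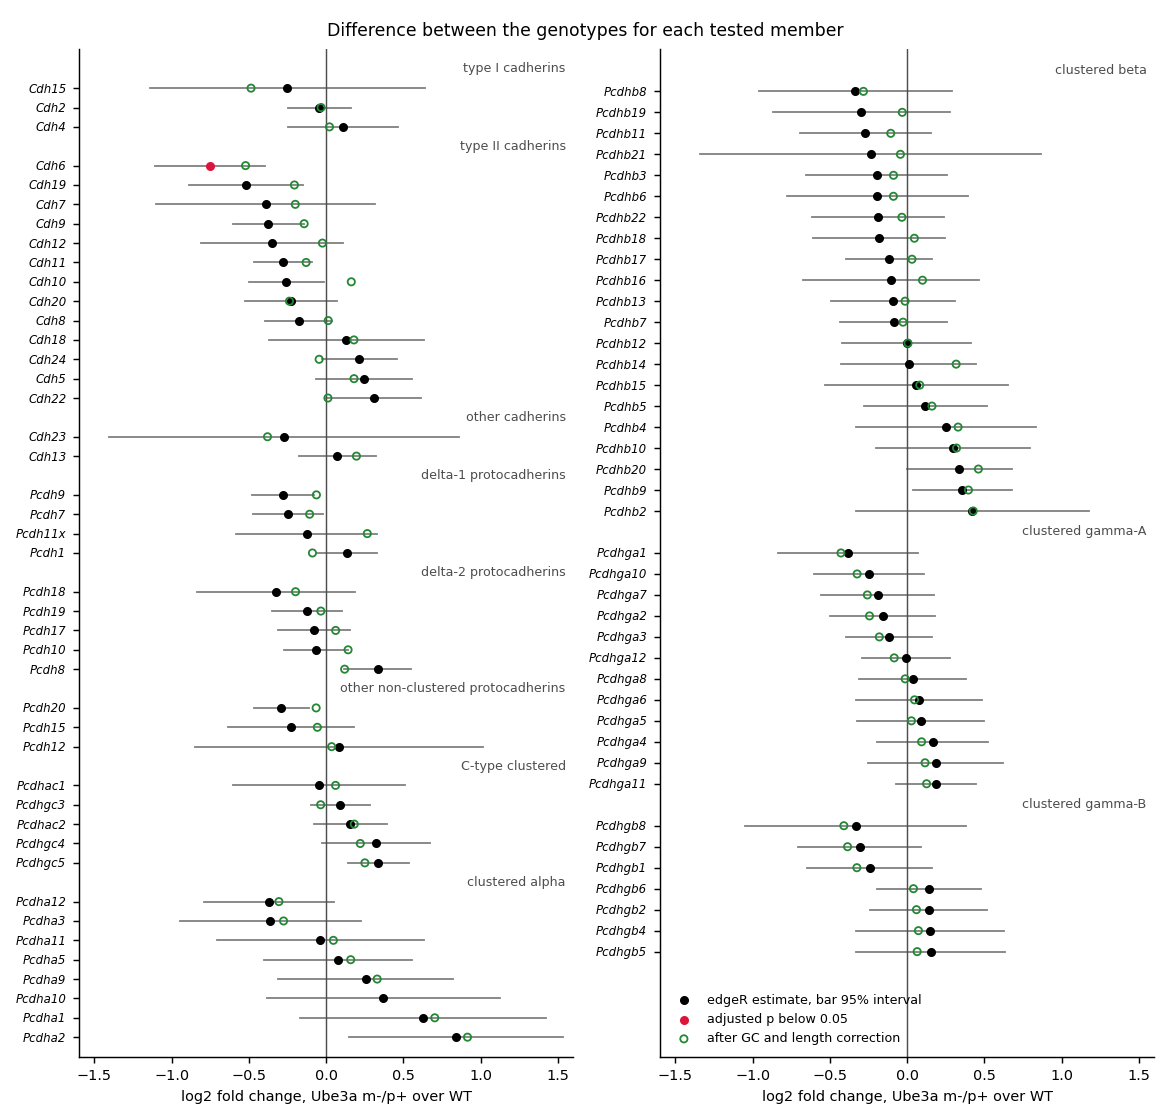
Log2 fold change of Ube3a m-/p+ over WT mice for each of the 83 tested members, grouped by subfamily, with filled points for the edgeR estimate (3 mice against 3), bars for its 95% confidence interval and open green circles for the estimate after the correction. Cdh6 is the 1 red point, at -0.75, and most intervals of the clustered genes cross 0.

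Type II cadherins held the 1 called gene. Of the 13 tested, 9 were lower and 4 were higher in Ube3a m-/p+ mice, with a median log2 fold change of -0.26 against 0.00 over all tested genes. In 5 of them (38.5%), Cdh6, Cdh9, Cdh10, Cdh11 and Cdh19, the unadjusted edgeR p was below 0.05 and the gene was lower, against 12.4% of all tested genes, and none was higher at that p, against 12.2%. The type II genes are also poor in GC, with a median of 42.4% in the longest transcript, and after the correction their median was -0.05 with 1 gene (7.69%), Cdh6, at an unadjusted edgeR p below 0.05, against 14.2% of all genes in that fit.

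Cdh6 encodes K-cadherin, a type II cadherin first known from kidney that also marks subsets of neurons and their connections. It was found at 13.4, 15.1 and 13.2 CPM in WT mice and at 9.58, 7.51 and 7.51 CPM in Ube3a m-/p+ mice. These values rest on 96 to 131 counts per WT library and 79 to 85 counts per mutant library. The highest mutant value lay below the lowest WT value. Cdh6 fell by 0.75 on the log2 scale (SE 0.17, 95% confidence interval -1.11 to -0.40), which is 0.59 times the WT level, with an edgeR adjusted p of 0.039. After the GC and length correction the log2 fold change was -0.52 with an adjusted p of 0.11 in edgeR, so the call was lost although the sign was kept. The mice numbered 1, whose libraries were alike in their GC trend, differed by -0.49 on the log2 scale. That sets 1 mouse against 1, and 6 of the 13 type II genes were lower in the same comparison. Leaving out WT mouse 2 or 3 or mutant mouse 2 or 3 also ended the call, with edgeR adjusted p values from 0.14 to 0.26 and log2 fold changes from -0.79 to -0.68. Of all genes tested in these fits, 2 were called without mutant mouse 3 and 0 in each of the others. The study's list of retinoic acid-regulated genes, its question being whether Ube3a bears on retinoic acid signalling, contains Cdh6 along with Cdh1, Cdh2 and Cdh3.

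The genes whose 6 log2 CPM values followed Cdh6 most closely were Cblb, Traf6 and Mtus1, with Pearson r of 0.999, 0.997 and 0.996 over the 6 libraries. Cblb, a ubiquitin ligase, was at 57.4, 60.5 and 55.3 CPM in WT mice and at 46.3, 39.2 and 39.6 CPM in mutant mice. With 14445 genes compared over 6 libraries, such values are given as a description only.

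Cdh6 and Cdh9 lie on chromosome 15, which also carries the type II genes Cdh10, Cdh12 and Cdh18, Cdh6 at chr15:13028701-13173675 on the minus strand and Cdh9 at chr15:16728756-16857094 on the plus strand (GRCm38, the assembly also called mm10, GENCODE M21). Their promoter sequences are shown because Cdh6 was the only called member and Cdh9 the type II gene with the next smallest adjusted p. Both come from RefSeq on GRCm38.p6 and run 5′ to 3′ on the strand of the gene, from 250 bases before to 50 bases after its RefSeq start. The 50 bases transcribed from that start are in capitals. The Cdh6 window is chr15:13173626-13173925 and the Cdh9 window chr15:16728665-16728964. In GENCODE M21 Cdh9 begins at 16728756, inside its window and upstream of the RefSeq start. Part of the lower-case Cdh9 bases thus lies within the GENCODE gene.
Cdh6: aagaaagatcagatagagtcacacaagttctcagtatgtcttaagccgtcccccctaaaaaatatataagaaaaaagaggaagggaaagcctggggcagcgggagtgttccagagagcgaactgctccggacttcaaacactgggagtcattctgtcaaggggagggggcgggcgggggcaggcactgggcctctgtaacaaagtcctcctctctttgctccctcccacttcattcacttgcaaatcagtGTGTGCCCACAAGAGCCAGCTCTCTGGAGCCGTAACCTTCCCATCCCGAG
Cdh9: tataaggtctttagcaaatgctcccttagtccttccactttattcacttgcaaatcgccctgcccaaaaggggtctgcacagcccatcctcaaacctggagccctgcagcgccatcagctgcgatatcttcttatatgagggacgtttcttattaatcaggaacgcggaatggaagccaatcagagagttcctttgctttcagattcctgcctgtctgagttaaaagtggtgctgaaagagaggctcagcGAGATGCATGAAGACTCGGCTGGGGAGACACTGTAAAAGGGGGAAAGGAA
The GC content was 53.0% in the Cdh6 window and 48.7% in the Cdh9 window, against a median of 52.7% over the RefSeq promoter windows. The letters AGGTCA, the half-site that retinoic acid receptors bind, were searched on both strands and occurred in neither window. They occurred in 16.3% of the 32851 windows and in 1 of the 25 windows found for 22 members, that of Cdh18. The letters CCAAT occurred in 37.4% of all windows and in 17 of the 25. They were found 74 bases upstream of the RefSeq start of Cdh9, inside the GENCODE gene, and not in the Cdh6 window. A match or its absence describes these letters only.

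Cdh9 and Cdh10 encode type II cadherins known from hippocampal synapses, where Cdh9 takes part in the contact between mossy fibres and CA3 cells. Cdh9 was at 40.6, 46.3 and 51.1 CPM in WT mice and at 36.4, 34.1 and 34.6 CPM in Ube3a m-/p+ mice. The genotypes did not overlap, and the log2 fold change was -0.37 (SE 0.11, edgeR adjusted p = 0.063), or -0.14 after the correction. Cdh10 was at 38.2, 42.7 and 49.9 CPM in WT mice and at 34.2, 38.6 and 34.8 CPM in mutant mice. Here 1 mutant mouse was above the lowest WT mouse, and the difference of -0.26 (SE 0.11, edgeR adjusted p = 0.18) became 0.16 after the correction. Cdh10 had the lowest GC content of the tested members, 33.8%.

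Cdh11, a type II cadherin of mesenchymal cells and of neurons, was at 115, 115 and 124 CPM in WT mice and at 103, 87.9 and 96.6 CPM in mutant mice. It was lower in each mutant mouse than in any WT mouse, with a log2 fold change of -0.28 (SE 0.09, edgeR adjusted p = 0.080) that became -0.13 after the correction. Cdh19, which is best known from Schwann cell precursors and other glia, was at 10.2, 10.1 and 10.4 CPM in WT mice and at 7.78, 6.54 and 6.94 CPM in mutant mice. The WT values of Cdh19 lay within a narrow band and the mutant values all lay below it, with a log2 fold change of -0.52 (SE 0.18, edgeR adjusted p = 0.091) that became smaller, -0.21, after the correction. The 3 markers of oligodendrocyte precursors summed to 169 to 176 CPM in WT and 144 to 155 CPM in mutant mice. Their log2 fold changes were -0.43 for Pdgfra, -0.05 for Cspg4 and -0.07 for Gpr17. The part of oligodendrocyte precursors in the Cdh19 values was not tested.

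The remaining type II genes varied in both directions. Cdh8, expressed in excitatory neurons, was at 84.0, 90.0 and 85.4 CPM in WT mice and at 86.7, 66.8 and 73.3 CPM in mutant mice, so that mutant mouse 1 lay within the WT range. Cdh20 was lower without overlap, at 15.2 to 18.4 CPM in WT and 13.6 to 14.5 CPM in mutant mice, with a log2 fold change of -0.23 (edgeR adjusted p = 0.32). Cdh22 was higher without overlap, at 13.3 to 14.9 CPM in WT and 15.2 to 19.4 CPM in mutant mice, with a log2 fold change of 0.31 (edgeR adjusted p = 0.21) that became 0.01 after the correction. Cdh24 was at 34.0 to 42.2 and 41.0 to 48.8 CPM. Cdh12 at 5.61 to 9.60 CPM, Cdh18 at 3.99 to 6.01 CPM and Cdh7 at 2.00 to 4.50 CPM over all mice had confidence intervals that crossed 0. Summed over the 13 genes, the type II level was 402, 424 and 427 CPM in WT mice and 383, 349 and 358 CPM in mutant mice, without overlap. The correction was not applied to this sum.

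Cdh5 encodes VE-cadherin, the adhesion receptor of endothelial junctions. It was at 15.2, 13.5 and 13.7 CPM in WT mice and at 17.5, 18.2 and 14.1 CPM in mutant mice. The groups overlapped in 1 mouse, and the log2 fold change was 0.25 (edgeR adjusted p = 0.31). The 4 endothelial markers Cldn5, Pecam1, Flt1 and Tek summed to 154 to 174 CPM in WT and to 151 to 163 CPM in mutant mice. They did not move together, with log2 fold changes of 0.46, -0.21, -0.16 and -0.23 in that order. In bulk tissue, a change in the number of cells of a type and a change in RNA per cell cannot be told apart.

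**Figure D2:**
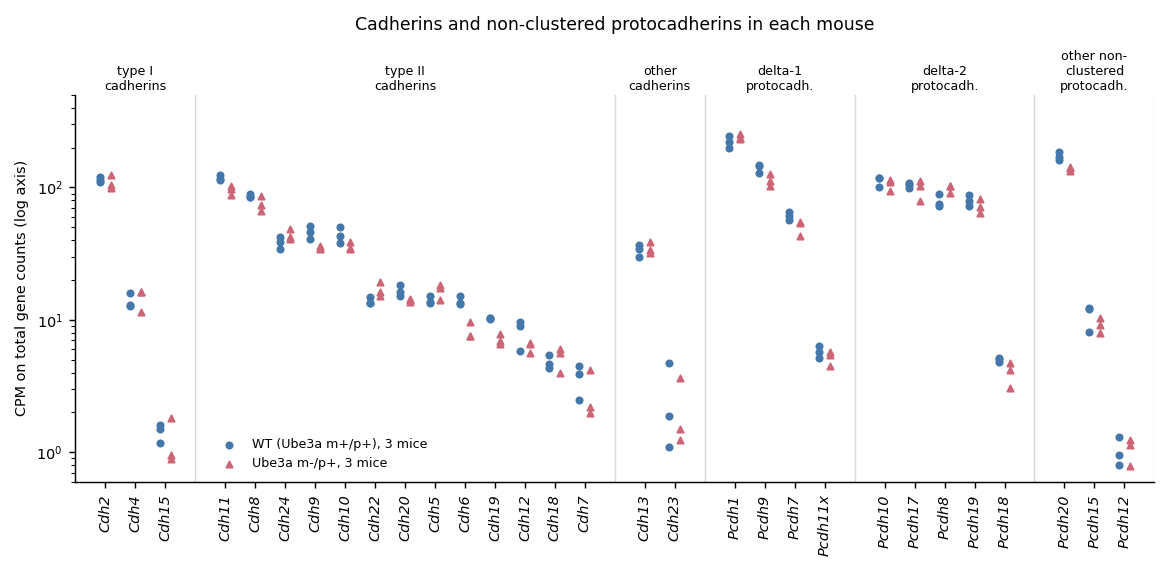
CPM on a log axis for each mouse, for the 30 tested cadherins and non-clustered protocadherins, with circles for the 3 WT and triangles for the 3 Ube3a m-/p+ mice. The 3 triangles of Cdh6, at 7.51 to 9.58 CPM, lie below its 3 circles at 13.2 to 15.1 CPM, while those of Cdh2 straddle the circles.

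Of the type I cadherins, Cdh2, Cdh4 and Cdh15 were tested. Cdh2, N-cadherin, the classical cadherin of synapses, was at 111, 120 and 114 CPM in WT mice and at 125, 99.5 and 105 CPM in mutant mice. Its log2 fold change was -0.05 (95% confidence interval -0.25 to 0.16, edgeR adjusted p = 0.80), an interval that does not reach the estimate for Cdh6. Cdh4, R-cadherin, was at 12.7 to 15.9 CPM in WT and 11.5 to 16.4 CPM in mutant mice, and Cdh15, M-cadherin of muscle, at 1.18 to 1.61 and 0.88 to 1.80 CPM. Cdh1, E-cadherin of epithelia, had 1 to 6 counts in WT libraries and 5 to 12 counts in mutant libraries, and Cdh3, P-cadherin, had 0 to 12 counts in any library, too few for a test. Choroid plexus, an epithelium next to the hippocampus, was carried over unevenly, its 5 markers summing to 99.4 to 2170 CPM in WT and 105 to 2260 CPM in mutant mice.

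Among the other cadherins, Cdh13 and Cdh23 were tested. Cdh13 encodes T-cadherin, which is held to the membrane by a lipid anchor and has no tail. Its level was 34.0, 36.8 and 29.6 CPM in WT mice and 32.0, 38.7 and 33.6 CPM in mutant mice, with a log2 fold change of 0.07 (95% confidence interval -0.18 to 0.32, edgeR adjusted p = 0.74). Cdh23, which joins Pcdh15 in the tip links of hair cells, was at 1.88, 4.73 and 1.10 CPM in WT mice and at 1.24, 1.50 and 3.61 CPM in mutant mice. In each genotype 1 mouse was above the others, and without WT mouse 2 the sign of its log2 fold change turned from -0.27 to 0.52. Cdh16 and Cdh17, the cadherins of kidney and gut, had 1 count each in all 6 libraries together, and Cdh26 had 24.

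The non-clustered protocadherins were mostly lower in Ube3a m-/p+ mice. Of the 12, all tested, 9 were lower and 3 were higher, with a median log2 fold change of -0.13 that became -0.05 after the correction. None was called. At an unadjusted edgeR p below 0.05, Pcdh7, Pcdh9 and Pcdh20 were lower and Pcdh8 was higher, beside 12.4% of all tested genes lower and 12.2% higher, and after the correction none of the 12 was below that p.

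Pcdh20 and Pcdh8 lie on chromosome 14, Pcdh20 at chr14:88464743-88471396 and Pcdh8 at chr14:79766775-79771312 (GRCm38, GENCODE M21), both on the minus strand. Their promoters are shown because they were the non-clustered protocadherins with the smallest adjusted p and moved in opposite directions. The RefSeq windows are chr14:88471347-88471646 for Pcdh20 and chr14:79771263-79771562 for Pcdh8 on GRCm38.p6, 5′ to 3′, with the 50 transcribed bases in capitals.
Pcdh20: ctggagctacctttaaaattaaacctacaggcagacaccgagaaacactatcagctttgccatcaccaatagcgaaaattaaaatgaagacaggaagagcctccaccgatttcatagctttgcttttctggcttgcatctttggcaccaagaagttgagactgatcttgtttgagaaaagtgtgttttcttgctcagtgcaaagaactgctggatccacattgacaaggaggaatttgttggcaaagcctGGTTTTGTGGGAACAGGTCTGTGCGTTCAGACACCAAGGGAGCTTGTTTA
Pcdh8: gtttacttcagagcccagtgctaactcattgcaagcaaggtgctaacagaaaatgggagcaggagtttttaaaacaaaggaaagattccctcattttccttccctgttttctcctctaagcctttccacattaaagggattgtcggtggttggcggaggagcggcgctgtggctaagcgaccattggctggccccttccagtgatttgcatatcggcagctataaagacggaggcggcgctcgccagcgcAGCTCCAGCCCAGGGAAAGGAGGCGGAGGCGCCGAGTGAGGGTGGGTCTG
The Pcdh20 window had a GC content of 43.7% and the Pcdh8 window of 54.3%. The letters TATAAA, the core of a TATA box, occurred 30 bases upstream of the Pcdh8 start on the plus strand of the gene. They occurred in 13.6% of all windows and in 2 of the 25 members' windows, the other being that of Pcdh15. Neither window held AGGTCA.

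Pcdh20, a protocadherin outside the delta groups, was at 160, 170 and 184 CPM in WT mice and at 139, 134 and 142 CPM in Ube3a m-/p+ mice. The genotypes did not overlap, with a log2 fold change of -0.29 (SE 0.08, edgeR adjusted p = 0.065) that became -0.07 after the correction. Pcdh8, also called arcadlin, is a delta-2 protocadherin whose mRNA rises with synaptic activity and which takes N-cadherin off the surface. It was at 89.8, 72.7 and 75.4 CPM in WT mice and at 91.0, 103 and 102 CPM in mutant mice. The highest WT and the lowest mutant value were close to each other, and both came from the mice numbered 1. The log2 fold change was 0.33 (SE 0.10, edgeR adjusted p = 0.072) and 0.12 after the correction. An annotated gene on the opposite strand, Gm9748, overlaps 436 bases of Pcdh8 exon, and whether the counting used strand is not given in the sources used here.

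The delta-1 genes have longer extracellular regions than delta-2 genes. Pcdh9 was at 128, 144 and 147 CPM in WT mice and at 127, 112 and 102 CPM in mutant mice, with a log2 fold change of -0.28 (SE 0.10, edgeR adjusted p = 0.097) that became -0.06 after the correction. Pcdh7 was at 57.0, 61.3 and 65.3 CPM in WT mice and at 54.2, 55.2 and 43.2 CPM in mutant mice, with a log2 fold change of -0.25 (SE 0.11, edgeR adjusted p = 0.17) that became -0.11. Both were lower without overlap, by a narrow margin, and an opposite-strand gene, 4932441J04Rik, overlaps 2235 bases of Pcdh7 exon. Pcdh1 was at 199 to 246 CPM in WT and 231 to 254 CPM in mutant mice (log2 fold change 0.13, 95% confidence interval -0.06 to 0.33), and X-linked Pcdh11x at 5.18 to 6.31 and 4.47 to 5.75 CPM.

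Of the other delta-2 genes, only Pcdh18 was without overlap between the genotypes, and none of the 4 had an unadjusted edgeR p below 0.05. Pcdh19, an X-linked gene mutated in an epilepsy that mainly affects females, was at 71.9, 88.0 and 79.7 CPM in WT mice and at 81.8, 71.5 and 64.1 CPM in mutant mice, with a log2 fold change of -0.12 (95% confidence interval -0.35 to 0.10, edgeR adjusted p = 0.49). Pcdh10 was at 100 to 118 CPM in WT and 93.5 to 114 CPM in mutant mice, and Pcdh17, which acts in axon extension and at presynaptic sites, at 98.9 to 109 and 79.2 to 111 CPM. Their log2 fold changes of -0.06 and -0.08 turned to 0.14 and 0.06 after the correction. Pcdh18 was lower without overlap, at 4.83 to 5.19 CPM in WT and 3.04 to 4.68 CPM in mutant mice, on 32 to 53 counts per library, with a log2 fold change of -0.32 (95% confidence interval -0.83 to 0.19). Pcdh15 at 7.98 to 12.3 CPM and Pcdh12, a protocadherin of vessels, at 0.79 to 1.30 CPM overlapped between the genotypes.

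The size and sign of the difference followed GC content in cadherins and non-clustered protocadherins. Over the 30 tested genes of both kinds, the log2 fold change and the GC content of the longest transcript had a Spearman rho of 0.71, and over all 14201 tested genes with a transcript it was 0.62. These are descriptions across genes of the same 6 libraries. All 8 tested cadherins with a GC content below 45% were lower in Ube3a m-/p+ mice, as were 2997 of the 3510 tested genes in that range. The median log2 fold change of all tested genes was -0.32 below 40% GC, -0.20 from 40 to 45%, -0.07 from 45 to 50%, 0.07 from 50 to 55% and 0.21 above 55%. After the correction the rho over the 30 genes was -0.02. Over the 52 clustered genes with a transcript, the rho was 0.23. For alpha and gamma genes that GC content includes the shared exons.

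**Figure D3:**
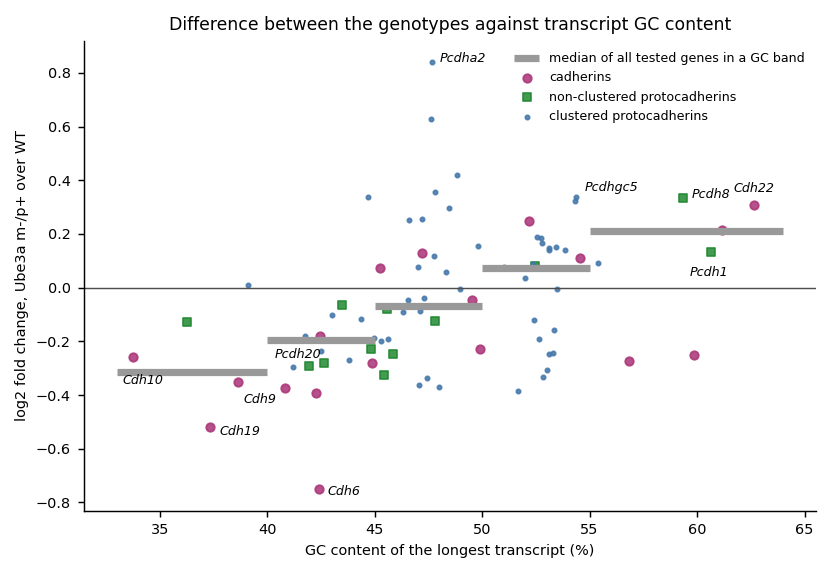
Log2 fold change of Ube3a m-/p+ over WT mice against the GC content (%) of the longest transcript, 1 point per tested member with a transcript, with grey bars for the median of all tested genes in each GC band. The grey bars rise from -0.32 below 40% GC to 0.21 above 55%, and Cdh6, at 42.4% GC and -0.75, lies farthest below them.

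The clustered protocadherins occupy a single stretch of chromosome 18 in the order alpha, beta, gamma. The 3 clusters span 36930184 to 37187661, 37264938 to 37524479 and 37661793 to 37841873 (GRCm38, GENCODE M21). Of the 58 genes, 53 were tested, 26 were lower and 27 were higher in Ube3a m-/p+ mice, and none was called. Their median log2 fold change was 0.01. In the alpha and gamma clusters a median of 2860 and 2119 bases of each annotated gene is shared with its neighbours, and reads there cannot be given to 1 isoform, so that each count stands mainly for the isoform's own first exon. The GC content and length used in the correction are those of the whole longest transcript, shared exons included. For alpha and gamma genes they are therefore not those of the counted sequence alone, which limits their corrected values. Reads that fell on more than 1 gene made up 0.30 to 0.38% of each library.

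The C-type isoforms stand at the 3′ end of the alpha and gamma arrays. Per length, Pcdhgc3 and Pcdhgc5 had the highest levels of the 3 clusters, whereas Pcdhgc4 and Pcdhac1 were low. Pcdhgc5 was at 110, 104 and 96.8 CPM in WT mice and at 118, 131 and 138 CPM in mutant mice. Every mutant mouse was above every WT mouse, with a log2 fold change of 0.34 (SE 0.09, 95% confidence interval 0.14 to 0.54, edgeR adjusted p = 0.059). It was the member with the smallest adjusted p after the GC and length correction, 0.11 in edgeR, at a log2 fold change of 0.25. The highest WT value and the lowest mutant value, 110 and 118 CPM, came from the mice numbered 1.

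Pcdhgc4, the isoform known to be needed for the survival of interneurons, was at 8.83, 8.65 and 9.74 CPM in WT mice and at 11.0, 12.1 and 10.4 CPM in mutant mice. It was higher without overlap, with a log2 fold change of 0.32 (SE 0.16, edgeR adjusted p = 0.24). The interneuron markers Gad1, Gad2 and Slc32a1 summed to 467 to 499 CPM in WT and 411 to 427 CPM in mutant mice, with log2 fold changes of -0.21, -0.37 and 0.32. Pcdhgc3 was at 72.5 to 82.3 CPM in WT and 80.1 to 84.2 CPM in mutant mice (log2 fold change 0.09), Pcdhac2 at 31.8 to 36.9 and 35.1 to 41.7 CPM (0.15) and Pcdhac1 at 3.34 to 4.36 and 3.16 to 4.56 CPM (-0.05). The last 3 overlapped between the genotypes.

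Summed over the gamma cluster, the level was 422, 421 and 402 CPM in WT mice and 442, 443 and 444 CPM in Ube3a m-/p+ mice. The groups did not overlap, which for 3 mice against 3 gives the smallest two-sided p that the exact permutation test allows, 0.1. The C-type genes made up 47.6, 45.1 and 44.6% of the gamma counts in WT mice and 48.3, 50.4 and 51.6% in mutant mice, again without overlap, and Pcdhgc5 alone 26.0, 24.7 and 24.1% against 26.8, 29.6 and 31.1%. The gamma-A and gamma-B genes together were at 225 ± 5.40 CPM in WT and 221 ± 6.88 CPM in mutant mice (SD, n = 3 each) and overlapped. Summed alpha was 71.3, 69.0 and 73.5 CPM in WT mice and 72.5, 75.8 and 76.7 CPM in mutant mice, and summed beta 149, 146 and 157 against 155, 146 and 144 CPM, both with overlap. The correction was not applied to these sums and shares.

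**Figure D4:**
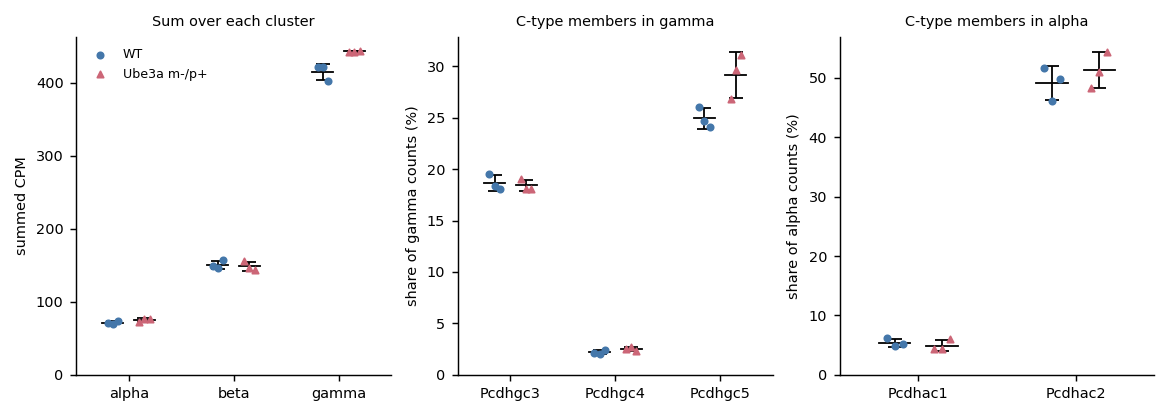
Left, CPM summed over the members of the alpha, beta and gamma clusters in each mouse. Middle and right, the percent of the gamma counts on Pcdhgc3, Pcdhgc4 and Pcdhgc5 and of the alpha counts on Pcdhac1 and Pcdhac2, with lines for the mean and bars for the SD of 3 mice. The Pcdhgc5 share is 24.1 to 26.0% in WT and 26.8 to 31.1% in Ube3a m-/p+ mice.

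The other clustered genes were low and their differences had wide intervals. Of the alpha genes, Pcdha2 was at 1.06, 2.07 and 2.19 CPM in WT mice and at 3.27, 3.18 and 2.95 CPM in mutant mice. All mutant values of Pcdha2 were above the WT values, on 9 to 36 counts per library, with a log2 fold change of 0.84 (SE 0.33, edgeR adjusted p = 0.13). Pcdha12 was lower without overlap, at 8.01 to 11.2 CPM in WT and 6.10 to 7.70 CPM in mutant mice (log2 fold change -0.37, edgeR adjusted p = 0.26). Pcdha3, Pcdha5 and Pcdha9 were at 2.76 to 6.76 CPM with overlap. Pcdha4 and Pcdha7 were listed at 0 in all 6 libraries, Pcdha6 had 2 counts and Pcdha8 had 25. How reads in the exons shared by the isoforms were assigned is not given in the sources used here.

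Of the beta genes, which have no constant exons in common, Pcdhb9 was at 12.3, 11.4 and 11.1 CPM in WT mice and at 13.4, 16.5 and 14.0 CPM in mutant mice. It was higher without overlap (log2 fold change 0.36, SE 0.15, edgeR adjusted p = 0.16), and so was Pcdhb20, at 10.2 to 12.6 CPM in WT and 13.0 to 16.6 CPM in mutant mice (log2 fold change 0.34, edgeR adjusted p = 0.20). The other 19 tested beta genes overlapped. Pcdhb17, at 16.1 to 20.2 CPM, had a log2 fold change of -0.12 (95% confidence interval -0.39 to 0.16). In the gamma-A genes Pcdhga10 was lower without overlap, at 10.8 to 12.4 CPM in WT and 8.34 to 10.6 CPM in mutant mice (log2 fold change -0.25, edgeR adjusted p = 0.37), and the 7 gamma-B genes all overlapped.

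After the correction for GC content and length, 7 of the 82 members with a transcript (8.54%) had an unadjusted edgeR p below 0.05, against 14.2% of the 14201 genes in that fit. They were Cdh6, Pcdhga1 and Pcdhgb7, which were lower, and Pcdha2, Pcdhb9, Pcdhb20 and Pcdhgc5, which were higher. None passed the adjusted threshold, at which that fit called 92 genes.

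Per length, the order of levels in WT hippocampus was led by protocadherins. CPM values were divided by the length in kb of the longest transcript, less the bases shared with other counted genes. Pcdh1 stood first at 40.9 ± 4.36 CPM per kb (SD, n = 3), followed by Pcdh20 at 32.7 ± 2.30, Pcdhgc3 at 30.1 ± 1.91 and Pcdhgc5 at 28.3 ± 1.78. Neighbours among the last 3 differed by less than their summed SDs. Cdh2 at 23.7 ± 0.93 CPM per kb was the highest cadherin, with Pcdh9 at 21.4 ± 1.54, Cdh11 at 20.8 ± 0.89, Pcdh8 at 19.4 ± 2.24 and Cdh8 at 18.9 ± 0.69 next, and each neighbour in this order differed by less than the summed SDs. In Ube3a m-/p+ mice Pcdhgc5, at 35.3 ± 2.76 CPM per kb (SD, n = 3), came after Pcdh1 at 44.3 ± 2.33 and before Pcdhgc3 at 31.8 ± 0.89, from which it differed by less than the summed SDs, and Pcdh20 was at 26.4 ± 0.75. Among the gamma isoforms of type A and B, Pcdhga11 was highest at 10.2 CPM per kb in WT mice. Opposite-strand genes that were not counted overlap 1381 bases of Pcdhga11 exon and 1559 bases of Pcdhgc3 exon. What their reads may add to these levels was not tested.

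**Figure D5:**
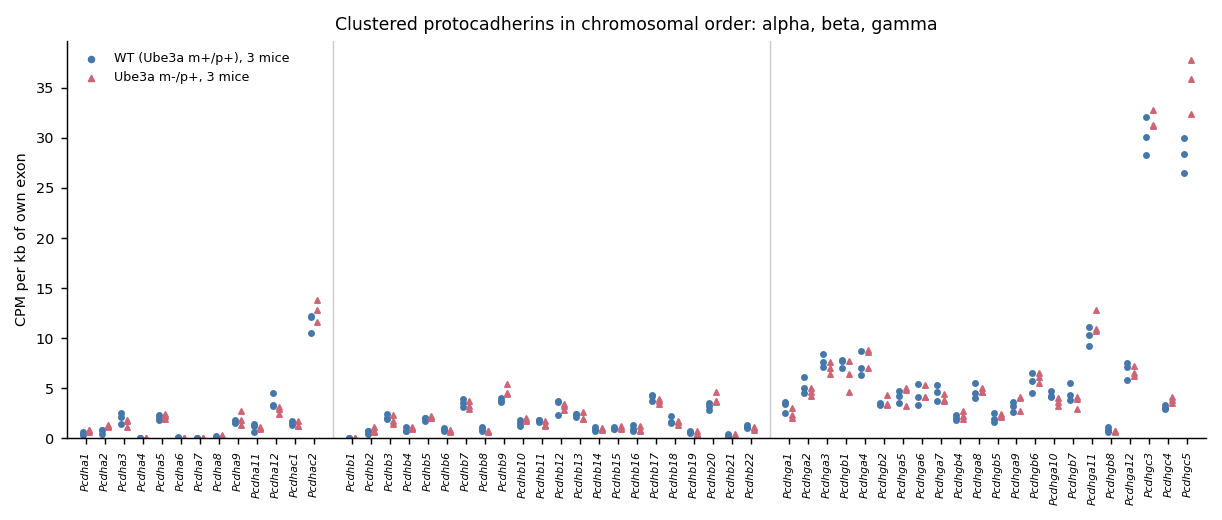
CPM per kb of own exon for the clustered protocadherins with an annotated position, in chromosomal order through the alpha, beta and gamma clusters, with circles for the 3 WT and triangles for the 3 Ube3a m-/p+ mice. Pcdhgc3 and Pcdhgc5 stand far above the rest, and for Pcdhgc5 all 3 triangles lie above the circles.

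The partners through which these receptors act were read from the lists given in the methods, and none of them was called. Of the 8 tested catenins and p120 relatives, 4 were lower and 4 higher, with a median log2 fold change of -0.01 and only Arvcf, a p120 relative, at an unadjusted edgeR p below 0.05. Arvcf was at 39.6, 32.6 and 30.0 CPM in WT mice and at 41.6, 43.1 and 44.2 CPM in mutant mice, a log2 fold change of 0.35 (edgeR adjusted p = 0.087) that became 0.15 after the correction. Next in adjusted p came Ctnna2 (log2 fold change -0.13, edgeR adjusted p = 0.43) and Jup (log2 fold change 0.13, edgeR adjusted p = 0.43). Beta-catenin, Ctnnb1, was at 486 to 548 CPM in WT and 496 to 512 CPM in mutant mice. Of the 5 genes listed for the shedding of cadherins, 4 were lower and 1 higher, with 0 at an unadjusted edgeR p below 0.05. Psen2 was higher without overlap, at 10.6 to 14.3 CPM in WT and 14.9 to 16.1 CPM in mutant mice. Its log2 fold change was 0.32 (edgeR adjusted p = 0.21), and 0.15 after the correction. Adam10 was lower without overlap, at 92.3 to 93.6 CPM in WT and 81.4 to 86.0 CPM in mutant mice (log2 fold change -0.14, edgeR adjusted p = 0.33), and its difference turned to 0.07 after the correction. Adam17 had a log2 fold change of -0.12 (edgeR adjusted p = 0.56).

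Promoter choice in the protocadherin clusters depends on CTCF and on cohesin, the ring complex that forms DNA loops. The list of 12 regulators of this choice also held genes outside CTCF and cohesin, among them Smchd1, Dnmt3b and Setdb1. Of the 12 genes, 10 were lower and 2 higher. At an unadjusted edgeR p below 0.05, 5 (Stag1, Stag2, Nipbl, Wapl and Smchd1) were lower, as were 12.4% of all tested genes. Over the 12 genes the median difference was -0.15 on the log2 scale, and -0.07 after the correction. Wapl, which releases cohesin from DNA, was at 73.5, 80.6 and 80.9 CPM in WT mice and at 66.3, 57.7 and 51.2 CPM in mutant mice. Its log2 fold change was -0.41 (edgeR adjusted p = 0.051) and -0.16 after the correction. Ctcf was at 85.9 to 94.9 CPM in WT and 78.7 to 83.8 CPM in mutant mice (log2 fold change -0.15, edgeR adjusted p = 0.29).

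In the WAVE complex and the kinases bound by protocadherin tails, 7 of 12 genes were lower and 5 higher. Nckap1, Abi1 and Abi2 were lower and Brk1 and Ptk2b higher at an unadjusted edgeR p below 0.05, which 12.4% and 12.2% of all tested genes also reached in these directions. Abi2 was at 236, 286 and 301 CPM in WT mice and at 222, 203 and 204 CPM in mutant mice (log2 fold change -0.37, edgeR adjusted p = 0.051, and -0.15 after the correction). Of the 13 tested other members of the cadherin superfamily, 11 were higher, with a median of 0.16 that became 0.08 after the correction. Clstn3, a calsyntenin of the postsynaptic membrane, was at 350, 292 and 292 CPM in WT mice and at 356, 377 and 405 CPM in mutant mice (log2 fold change 0.30, edgeR adjusted p = 0.075, and 0.14 after the correction). Celsr2, a cadherin with many membrane passes that acts in planar polarity, had a log2 fold change of 0.25 (edgeR adjusted p = 0.094, and 0.10 after the correction), and Dchs2 of 1.06 at 0.94 to 3.72 CPM (edgeR adjusted p = 0.12).

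Excitatory neuron markers were present at high levels in every library, Slc17a7, Neurod2, Neurod6 and Camk2a summing to 6843 to 7796 CPM in WT and 7488 to 8317 CPM in mutant mice. No marker of the 15 cell type lists was at 0 in all libraries. The summed level of several lists did not overlap between the genotypes. The 4 CA1 markers summed to 496 to 523 CPM in WT and 411 to 479 CPM in mutant mice, the 3 pericyte markers to 157 to 175 and 113 to 145 CPM, the 3 microglial markers to 199 to 219 and 174 to 192 CPM, the 3 ependymal markers to 12.4 to 13.4 and 20.4 to 27.6 CPM, and the 6 markers of thalamus and striatum to 115 to 132 and 135 to 140 CPM. Members of a list did not always move together. Of the pericyte markers Rgs5 was lower (log2 fold change -0.51) while Pdgfrb (0.05) and Kcnj8 (0.58) were not, and of the thalamus and striatum markers Rora (-0.62) and Lef1 (-0.13) went against the sum, as did Fibcd1 (0.11) of the CA1 markers. The part of these cells in the differences of the members was not tested.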

How the data were processed

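RNA-seq gene counts of 6 hippocampal libraries, 1 per mouse, were used as deposited by the authors. Per the labels, the submitters' processing notes name STAR 2.7.4a, HTSeq and mm10. The annotation, the overlap mode and the strand setting are not given in the sources used here. The counts are raw, and the lines for reads on no gene (54.1 to 55.0% of listed reads), on more than 1 gene (0.30 to 0.38%) and not placed uniquely were left out of totals and tests. No other values of the study were used.

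Members were taken by symbol and put into subfamilies. The members and lists were chosen with earlier results of these data known. Genes were tested with edgeR 4.0.16 (R 4.3.3) by its quasi-likelihood F test with robust dispersions, TMM factors and filterByExpr, genotype as the only term, two-sided, and Benjamini-Hochberg adjustment over all 14445 genes tested. A gene was called where its fold change was above 1.2 and its adjusted p under 0.05, the study's cut-offs applied here to the adjusted p. The p-values measure the spread between 3 mice per genotype. For single values the exact permutation test cannot go below 0.1. Intervals cover 95%, and SE is that of the log2 fold change. Fits were checked on simulated data.

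GC content and length come from the longest GENCODE M21 transcript of each gene, which for alpha and gamma genes includes the shared exons. The correction fitted, in each library, a natural spline with 5 degrees of freedom each for GC content and log length to the deviation of log2 CPM (prior count 2) and entered the fit as an offset in edgeR, over 14201 genes. DESeq2 1.42.0, other normalisations, filters on low counts, the replicate number as a block and leaving out each mouse were alternatives. Named genes were Ube3a, the called members, the 4 highest and the extreme members of each subfamily, a list of well-known members, and the 3 genes with the smallest adjusted p of each partner list. Ctnnb1, Adam10, Ctcf, Cdh3, Cdh7, Cdh16, Cdh17, Cdh26 and other members beyond these were named after their values were seen. Partner lists held catenins, shedding proteases, regulators of promoter choice, the WAVE complex with kinases, and other cadherin superfamily genes. Promoters were matched by symbol to RefSeq (25 windows for 22 members). The summed level of 1 cell type list is not reported here.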

Additional observations from a re-analysis of the deposited data

How the results depend on the processing

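The count of called members was 1 in the reported fit and with DESeq2 size factors, upper-quartile factors, total counts or a filter of 10 counts in every library, each time Cdh6. It was 4 with DESeq2 (Cdh6, Pcdh20, Pcdh8 and Pcdhgc5, where 4.84% of all genes were called) and 4 without a filter (Cdh6, Cdh9, Pcdh8 and Pcdhgc5, with 6.10% of all genes). At an unadjusted edgeR p below 0.05 with the same fold it was 10, a rule for which the share of all genes was not counted. After the GC content and length correction it was 0, where 92 of 14201 genes were called. Leaving out 1 mouse gave 0 to 8 calls, 8 without WT mouse 1 (that fit called 17.6% of all genes), 6 without Ube3a m-/p+ mouse 1 (12.5% of all genes) and 0 without any of the other 4 mice. Without WT mouse 2, WT mouse 3 or Ube3a m-/p+ mouse 2 the fit called 0 of all genes. Without Ube3a m-/p+ mouse 3 it called 2 of 14568. With the replicate block the count was 0, and edgeR called 0 of 14445 genes. At an unadjusted edgeR p below 0.05 that fit had 9 of the 83 tested members and 2422 of the 14445 genes. With the replicate block and the correction together the count was also 0, where 13 of 14201 genes were called. Deviations from the genotype means had an r of -0.28, -0.18 and -0.31 between mice with the same number. The GC trends of the libraries enter these deviations, so the r values cannot decide whether the numbers mark pairs. The labels state no pairing, and the numbers were used as a block only as an alternative. The cause of the moves in the count was not tested.

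With the correction alone, and with the replicate block and the correction, the median log2 fold change was -0.0456 and -0.0475 in type II cadherins, 0.0612 and 0.0605 in delta-2 protocadherins, -0.0573 and -0.047 in other non-clustered protocadherins and 0.0314 and 0.0304 in beta genes. The alpha median was 0.0175 with at least 10 counts in every library. Leaving out 1 mouse gave medians of -0.41 to 0.33 in other cadherins (0.33 without WT mouse 2), -0.34 to -0.14 in other non-clustered protocadherins, 0.0136 to 0.26 in alpha genes (lowest without Ube3a m-/p+ mouse 1), -0.0935 to -0.00764 in beta genes and 0.00553 to 0.13 in gamma-B genes.

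The sign of the log2 fold change turned with the correction in 15 of the 82 members. Single-gene values under the alternatives were taken for the named genes only, and among these it turned, with the correction and with both, in Cdh10 (0.16 and 0.16), Cdh24 (-0.0456 and -0.0475), Cdh8 (0.013 and 0.012), Pcdh1 (-0.0889 and -0.0908), Pcdh10 (0.14 and 0.14), Pcdh11x (0.27 and 0.27), Pcdh17 (0.0612 and 0.0605), Pcdhac1 (0.0606 and 0.0457), Pcdhb17 (0.0314 and 0.0304) and Pcdhgc3 (-0.0359 and -0.0349). Pcdhga12 turned to 0.00627 with upper-quartile factors and to 0.00614 without a filter. Leaving out 1 mouse turned it at least once in Cdh13 (-0.0105 to 0.15), Cdh2 (-0.14 to 0.0316), Cdh23 (-0.91 to 0.52), Pcdh10 (-0.14 to 0.0122), Pcdh12 (-0.0697 to 0.30), Pcdh17 (-0.17 to 0.0429), Pcdha5 (-0.0188 to 0.17), Pcdha9 (-0.00708 to 0.46), Pcdhac1 (-0.24 to 0.0572), Pcdhb7 (-0.19 to 0.00946) and Pcdhga12 (-0.11 to 0.062). Of the values of single genes under all alternatives, 780 kept their direction and their side of the threshold, 38 turned sign, 14 lost the call and 18 gained it. Counts limit the alpha, beta and low cadherin genes, whose intervals are widest, and differences of the size of Pcdha2 rest on 9 to 36 counts per library.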
